A study of Homo sapiens with 6 samples.

Results

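RKO is an established, poorly differentiated human colorectal carcinoma cell line. Mucins and their secretory helpers were described in it by taking, from the deposited table, each gene whose name is MUC followed by a digit, together with AGR2, AGR3, SPDEF and the trefoil factors TFF1 to TFF3. This gave 4 of the 2885 genes of the table: the mucins MUC1, MUC2 and MUC4, and AGR2. GENCODE 29 annotates 26 genes that the rule covers, 20 with a MUC name and 6 others. Of the 20, 17 are protein-coding mucin genes, and MUC20-OT1, MUC20P1 and MUC5B-AS1 are a long noncoding RNA, a pseudogene and an antisense RNA. The table held 3 of the 17. MUC5AC, MUC5B, MUC6, MUC13, AGR3, SPDEF, TFF1, TFF2, TFF3 and the rest of the 26 were not among its genes and were not analysed here. RNA sequencing had been done on 3 libraries labelled shNC, a control short hairpin RNA in cells whose genotype label is wild type, and 3 labelled shKMT5A, a hairpin against the histone H4 methyltransferase KMT5A in cells labelled as KMT5A knockdown. The labels do not say whether libraries of a group came from separate cultures or hairpins. In the deposited columns the shKMT5A libraries carry that label, a # sign and a number, which may count replicates or hairpins. The numbers are called replicates below. The p-values thus reflect library-to-library spread alone, some or all of which may be technical.

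By the authors' test the table reaches up to an adjusted p of 0.0499 and down to a log2 fold change of 1 in size, so membership in it already means a called difference. Each shNC library had 1363382 to 1369655 reads in these genes, each library labelled shKMT5A had 1891460 to 1980866, and the total depth is unknown. KMT5A itself was higher in the libraries labelled shKMT5A, against that label: 3737 ± 386 against 1283 ± 33.8 normalized counts (SD, n = 3 each), or 1.54 ± 0.075 on the log2 scale (SE; limma, adjusted p = 1.00e-08; exact two-sided permutation p = 0.1, the smallest that 3 against 3 libraries allow). Directions below are therefore those of the labelled libraries and not of less KMT5A transcript. These are bulk libraries, in which more cells carrying a transcript and more transcript per cell cannot be told apart.

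Mucins are large proteins with long repeated stretches rich in serine and threonine to which sugar chains are attached. MUC2 is secreted by goblet cells and forms the gel of colonic mucus, whereas MUC1 and MUC4 stay anchored in the cell membrane and form part of the surface coat. MUC4 can also bind the receptor ERBB2. AGR2 is a protein disulfide isomerase of the endoplasmic reticulum, the compartment in which mucins fold, and mice without Agr2 fail to make mature Muc2. In the normal colon, ATOH1 and SPDEF direct the goblet cell programme and Notch signalling restrains it.

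The repeats that make these genes mucins are shown first, since they also bear on how reads can be counted. Each line gives the most frequent unit of the tandem repeat in the longest GENCODE 29 transcript, in the 5′ to 3′ direction of the gene.

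MUC1, repeat unit: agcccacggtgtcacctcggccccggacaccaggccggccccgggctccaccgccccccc

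MUC2, repeat unit: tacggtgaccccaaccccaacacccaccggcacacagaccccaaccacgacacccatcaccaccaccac

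MUC4, repeat unit: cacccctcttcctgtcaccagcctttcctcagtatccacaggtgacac

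The period was 60 bases in MUC1, 69 in MUC2 and 48 in MUC4, and the unit printed occurred 19, 9 and 14 times without a mismatch. Repeats at these periods covered 58.1% of the 4170 bases of the MUC1 transcript, 31.7% of the 12667 bases of that of MUC2 and 57.3% of the 17110 bases of that of MUC4. Of all stretches of 100 bases in these transcripts, 32.5%, 13.9% and 13.1% occurred more than once in the same transcript. None occurred in a transcript of another gene. The 1778 bases of the AGR2 transcript had no such repeat. The sources used here do not give whether reads with several alignments were counted, and the part of the repeats in the levels was not tested.

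AGR2 carries a different signature, printed because it places the protein in the endoplasmic reticulum. The last 30 coding bases before its stop codon end in the codons of a retrieval signal of the KDEL type. The capitals mark these last 4 of its 175 codons.

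AGR2, coding end: aaagctctcaagttgctgAAGACTGAATTG

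All 4 genes were higher in the libraries labelled shKMT5A, where 57.4% of the table's genes were called higher and 42.6% lower (limma, adjusted p under 0.05). The 4 were also without overlap between groups, as 57.2% of the table's genes were in that direction and 42.5% in the other. On the reads of 5 libraries edgeR with TMM scaling called 3 of the 4 higher (51.7% of the table's genes), edgeR with the authors' factors 4 (57.3%) and DESeq2 2 (27.2%). With DESeq2, 39.0% of the table's calls were higher, against 57.4% with limma. By limma the median log2 fold change of the 4 was 1.78, beside 1.13 over all genes tested and 1.81 over the 1655 genes called higher. Among those 1655 genes a larger log2 fold change was found for 394 in the case of MUC2, 687 for MUC4, 1037 for MUC1 and 1202 for AGR2. With 4 genes and a table selected on the same libraries, these shares are a description only.

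MUC1 (ENSG00000185499), the membrane mucin, lies on chromosome 1 from 155185824 to 155192916 on the minus strand of GRCh38. In normalized counts, shNC replicates 1 to 3 had 98.1, 105 and 86.5, and shKMT5A replicates 1 to 3 had 297, 252 and 269. Every library labelled shKMT5A was above every shNC library by a wide gap, and the replicates lay close together. Group means were 96.5 ± 9.31 and 273 ± 23.0 (SD, n = 3 each), with a ratio of 2.83. The log2 fold change was 1.49 ± 0.12 (SE), with a 95% interval of 1.22 to 1.76 (limma, adjusted p = 5.22e-07). MUC1 shares 48 of its 4717 exon bases, 1.02%, with AL713999.1, an annotated gene of the same strand. EFNA1, an ephrin ligand 50967 bases away, was the one other gene of the table within 100000 bases of any of the 4. It went from 371 ± 22.5 to 848 ± 51.9 normalized counts (limma, adjusted p = 1.10e-07).

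MUC4 (ENSG00000145113), the other membrane mucin, lies on chromosome 3 from 195746765 to 195812277 on the minus strand. In the same order, the shNC replicates had 2.86, 9.63 and 2.95 normalized counts and the shKMT5A replicates 18.9, 24.6 and 22.9. These stand for 3, 10 and 3 reads against 18, 24 and 23 reads. The groups did not overlap, and shNC replicate 2 stood above the other shNC libraries. Group means were 5.14 ± 3.88 and 22.1 ± 2.94 (SD, n = 3 each), with a ratio of 4.29 that was 7.61 without shNC replicate 2. The log2 fold change was 2.07 ± 0.43 (SE), with a 95% interval of 1.12 to 3.03 (limma, adjusted p = 7.92e-04). With DESeq2 on the reads of 5 libraries it was 1.04 and not called (adjusted p = 0.223, where the other ways of processing gave 9.21e-05 to 0.00688).

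MUC2 (ENSG00000198788), the gel-forming mucin, lies on chromosome 11 from 1074875 to 1110511 on the plus strand. Only 1, 0 and 2 reads were found in shNC replicates 1 to 3, and 11, 15 and 6 in shKMT5A replicates 1 to 3, which is 0.952, 0 and 1.97 against 11.5, 15.4 and 5.96 normalized counts. No library labelled shKMT5A was as low as any shNC library, but all values were near the limit of detection. The means were 0.973 ± 0.983 and 10.9 ± 4.72 (SD, n = 3 each). With 3 reads in the whole shNC group, the ratio of reads, corrected for the factors, of 11.3 had an exact 95% counting interval of 3.53 to 57.6, which covers counting error only. Dropping shNC replicate 3 gave a ratio of the means of 23.0, and dropping shNC replicate 2 one of 7.50. On the log2(value + 1) scale the fold change was 2.65 ± 0.48 (SE), with a 95% interval of 1.58 to 3.72 (limma, adjusted p = 3.07e-04). It was 4.10 with a pseudocount of 0.1 and 1.38 with one of 5, so its size depends on how low counts are handled.

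AGR2 (ENSG00000106541), the disulfide isomerase, lies on chromosome 7 from 16791811 to 16833433 on the minus strand. The shNC replicates had 25.7, 32.7 and 30.5 normalized counts, and the shKMT5A replicates 72.2, 55.3 and 105. The lowest library labelled shKMT5A was above the highest shNC library, and shKMT5A replicate 3 stood above the other libraries of its group. Group means were 29.6 ± 3.58 and 77.6 ± 25.5 (SD, n = 3 each), with a ratio of 2.62. The log2 fold change was 1.32 ± 0.25 (SE), with a 95% interval of 0.77 to 1.86 (limma, adjusted p = 3.77e-04). The call was lost with edgeR on the reads of 5 libraries, which leave out shKMT5A replicate 3, with TMM scaling (log2 fold change 0.47, adjusted p = 0.0799) and with DESeq2 on the same reads (0.07, adjusted p = 0.873). Under the other ways of processing the adjusted p was at most 0.0188. The call held with edgeR and the authors' factors (1.10, adjusted p = 4.79e-05) and with limma without that library (1.07).

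**Figure D1:**
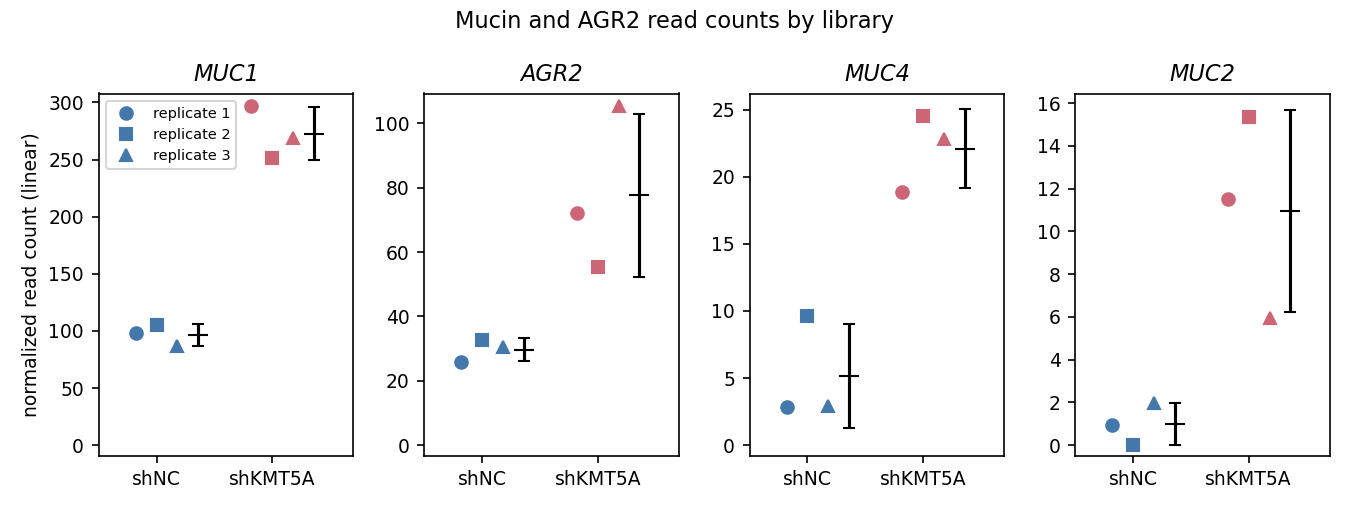
Normalized read counts (linear axis, a scale of its own for each gene) of MUC1, AGR2, MUC4 and MUC2 in the 3 shNC and 3 shKMT5A libraries, with symbols for replicate numbers. The black bar is the mean with its SD (n = 3), drawn no lower than 0. In each panel the shKMT5A libraries lie above the shNC libraries, AGR2 spreads from 55.3 to 105 within shKMT5A, and MUC2 is at most 15.4.

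For each of the 4 genes an exact permutation test, two-sided, gave p = 0.1, the smallest possible here. The authors' deposited table gives log2 fold changes of 1.499 for MUC1, 1.39 for AGR2, 2.10 for MUC4 and 3.50 for MUC2. The adjusted p in the authors' deposited table was 5.91e-19, 5.24e-05, 0.00282 and 0.00639 in the same order. The 95% intervals of all 4 log2 fold changes from limma overlapped one another, and differences in fold change between the genes were not tested.

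**Figure D2:**
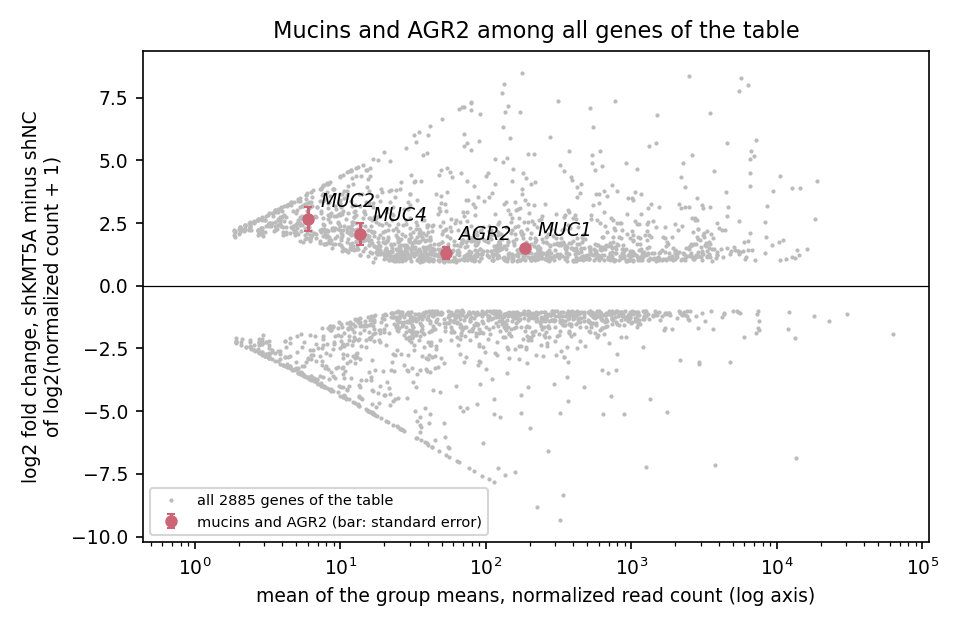
Log2 fold change (shKMT5A minus shNC, on log2 of the normalized count + 1) against the mean of the group means (log axis) for the 2885 genes of the table in grey and the 4 secretory genes in red with standard errors. The empty band around 0 is the authors' selection, and the 4 genes lie among the other higher genes. MUC1 and AGR2, at 1.49 and 1.32, lie below the median of the genes called higher, 1.81.

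Scaling moved the whole table. All alternative factors, those of edgeR with TMM included, were computed over these selected genes, each with a called difference. Their values show how far results depend on scaling, and which factors are right was not tested. The median log2 fold change of all genes, 1.13 with the authors' factors, shifted by -0.24 with equal medians, by -0.59 with TMM factors computed over the table, by -0.57 with equal totals and by -1.02 with DESeq2. The log2 fold change of MUC1 was 0.90 with the TMM factors and 0.47 with DESeq2 (adjusted p = 0.027, the highest of its values), and that of KMT5A was 0.94 with the TMM factors, 0.96 with equal totals and 0.59 with DESeq2. Both stayed called as higher. Relative to the table's median, MUC1 was higher by 0.36, AGR2 by 0.19, MUC4 by 0.95 and MUC2 by 1.52 with the authors' factors. Without shKMT5A replicate 3, AGR2 was at -0.06 relative to the table's median. This median lies near the smallest change that the authors' selection kept, so most genes called higher exceed it. MUC1 and AGR2, at 1.49 and 1.32, were below the median of the genes called higher, 1.81.

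Levels per gene length put the membrane mucin first. In normalized counts per kilobase of exon, MUC1 went from 20.5 ± 1.97 in shNC to 57.8 ± 4.87 in shKMT5A, and AGR2 had 10.4 ± 1.26 and 27.3 ± 8.95 (SD, n = 3 each). MUC4 had 0.241 ± 0.182 and 1.04 ± 0.138 per kilobase, and MUC2 had 0.0768 ± 0.0776 and 0.864 ± 0.373. MUC1 was above AGR2 in each library, and both were above MUC4 and MUC2 in each library. MUC4 and MUC2 could not be ordered, since their values overlapped in both groups: 0.134 to 0.451 against 0 to 0.155 in shNC, and 0.884 to 1.15 against 0.471 to 1.21 in shKMT5A. By this measure MUC1 exceeded 53.0% of the table's genes in shNC and 68.4% in shKMT5A. For MUC2 the shares were 5.17% and 11.6%, so MUC2 was among the scarcer transcripts of the table in both groups.

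**Figure D3:**
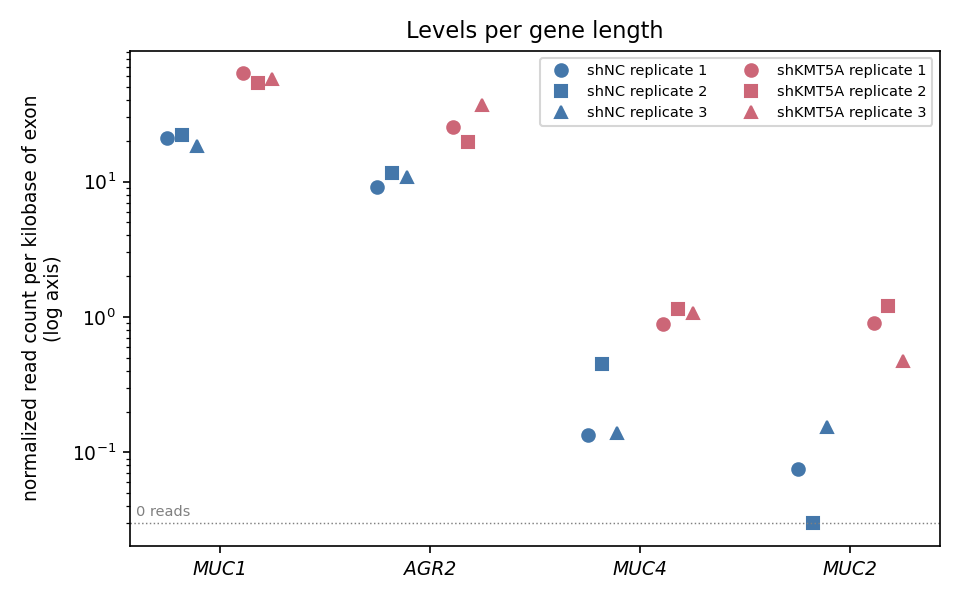
Normalized read counts per kilobase of exon (log axis) of the 4 genes, a point for each library. MUC1 and AGR2 lie at 9.04 or above in all 6 libraries, MUC4 and MUC2 at 1.21 or below, and the MUC2 library with 0 reads is drawn on the dotted line.

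The coefficient of variation over the shKMT5A replicates was 8.42% for MUC1 and 32.8% for AGR2, where counting alone would give 6.12% and 11.5%. For AGR2 in shNC it was 12.1%, against 18.1% from counting, and for MUC4 in shNC 75.5%, against 43.3%. In shKMT5A, replicate 3 held the highest value of AGR2 and the lowest of MUC2 in its group. In shNC, replicate 2 held the highest values of MUC1, AGR2 and MUC4 and no read of MUC2, a gene with at most 2 reads in any shNC library.

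The start regions of the 4 genes are printed for description, and they differ in their letters. Each window runs from 250 bases before to 50 bases after the RefSeq start (GRCh38.p14), 5′ to 3′ on the gene's strand. The table has 2 windows for MUC1 that overlap, and the first is used. Capitals mark any match, on either strand, to TATAAA (the TATA box), CAGCTG (the E box bound by factors of the ATOH1 class), CACCTG (the E box bound by ZEB and SNAI repressors), TTCNNNGAA (STAT palindrome) and TGANTCA (AP-1), and would mark TGTTTAC (FOXA core), the interferon response core, a repeat of GAAA with a spacer of 2 bases, and the NF-kB consensus, which had no match. No match says only that these letters are not in these windows.

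MUC1, chr1:155192866-155193165, minus strand: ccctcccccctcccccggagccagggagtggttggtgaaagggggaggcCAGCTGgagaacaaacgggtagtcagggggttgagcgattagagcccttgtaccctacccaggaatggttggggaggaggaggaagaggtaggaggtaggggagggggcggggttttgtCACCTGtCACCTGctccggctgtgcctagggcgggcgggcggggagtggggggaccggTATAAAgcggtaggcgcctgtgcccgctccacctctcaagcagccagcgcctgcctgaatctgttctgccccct

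MUC4, chr3:195811880-195812179, minus strand: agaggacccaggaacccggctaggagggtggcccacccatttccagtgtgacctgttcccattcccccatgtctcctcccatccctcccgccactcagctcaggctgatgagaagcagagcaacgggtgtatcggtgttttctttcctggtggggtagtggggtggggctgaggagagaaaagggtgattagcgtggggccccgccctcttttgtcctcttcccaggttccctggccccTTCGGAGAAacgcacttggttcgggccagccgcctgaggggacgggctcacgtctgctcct

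MUC2, chr11:1074624-1074923, plus strand: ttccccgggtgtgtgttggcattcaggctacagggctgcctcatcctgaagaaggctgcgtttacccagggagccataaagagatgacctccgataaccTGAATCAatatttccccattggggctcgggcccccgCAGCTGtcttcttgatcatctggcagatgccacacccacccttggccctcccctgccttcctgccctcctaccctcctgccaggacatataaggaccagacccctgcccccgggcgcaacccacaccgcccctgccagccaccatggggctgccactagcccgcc

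AGR2, chr7:16804950-16805249, minus strand: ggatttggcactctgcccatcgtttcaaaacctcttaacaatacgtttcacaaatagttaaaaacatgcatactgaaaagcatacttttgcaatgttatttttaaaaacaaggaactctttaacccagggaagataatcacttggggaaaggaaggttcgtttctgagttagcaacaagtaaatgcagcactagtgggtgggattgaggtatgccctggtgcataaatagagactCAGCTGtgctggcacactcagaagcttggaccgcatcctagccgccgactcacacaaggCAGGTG

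CAGCTG was present in 3 of the 4 windows (MUC1, MUC2 and AGR2) and in 17.9% of the 34941 windows of this length. CACCTG was present in MUC1, where it occurs on both sides of a single base, and once in AGR2, and in 20.6% of all windows. The STAT palindrome was in MUC4 alone of the 4 and in 7.66% of all windows. TGANTCA, the AP-1 pattern searched with any middle base, was in MUC2 alone, as TGAATCA, and in 7.72%. A narrower AP-1 pattern was not searched. TATAAA was in MUC1 alone and in 11.6%. The interferon response core, FOXA core and NF-kB consensus are in 3.57%, 3.42% and 11.3% of all windows. Of the 4 further motifs searched and not capitalised, GGGCGG (GC box) was in the 3 mucins and 44.9% of all windows. TTTATG (CDX core) was in MUC2 and AGR2 and in 10.6%, GATAA (GATA core) in the same genes and in 22.8%, and ACGTG (hypoxia core) in MUC4 and in 21.4%. The AGR2 window had 43.7% G and C, and those of the mucins had 62.0% to 65.7%, beside a median of 58.7% over all windows. The AGR2 model of the deposited table reaches further upstream than this RefSeq start.

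Besides MUC2 and AGR2, 5 other genes of a list of 20 goblet cell products were in the table, 1 higher and 4 lower. Over all 7, MUC2 and AGR2 included, the median log2 fold change was -1.04. FCGBP, a mucus protein bound to MUC2, was higher with 70.4 ± 4.75 against 27.5 ± 10.3 normalized counts. WFDC2, a secreted protease inhibitor, fell from 582 ± 39.1 to 166 ± 13.9, and BCAS1 from 47.0 ± 2.62 to 16.1 ± 7.97. SYTL2 and LRRC26 were also lower. Here and in the following lists all genes in the table passed an adjusted p of 0.05 by limma, as 99.9% of the table did, and SDs are over 3 libraries.

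Transcription factors of the secretory lineage were in the table for 3 of 20. CREB3L1, a membrane-bound activator of secretory pathway genes, rose from 30.6 ± 2.08 to 95.4 ± 8.24 normalized counts, and XBP1, the factor of the unfolded protein response needed by secretory cells, from 1564 ± 120 to 3599 ± 203. ELF3, an epithelial ETS factor, fell from 998 ± 18.4 to 374 ± 40.1. With DESeq2 on the reads of 5 libraries CREB3L1 and XBP1 were no longer called (adjusted p = 0.0522 and 0.157, against at most 0.000161 and 3.31e-05 under the other ways of processing). ATOH1, KLF4, FOXA1 and FOXA2 were not analysed here.

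Enzymes that attach mucin sugars were lower where the table held them. All 3 of 44 were lower (median log2 fold change -2.42, beside 42.6% of the table's genes called lower). GALNT1, which starts O-linked chains, fell from 2572 ± 133 to 763 ± 17.2 normalized counts, and GCNT3, which branches mucin chains, from 64.3 ± 13.0 to 11.3 ± 3.79. GALNT17 had 14 reads over shNC and 0 over shKMT5A, at least 4.41-fold lower against a floor of 3 reads over the group. The 41 remaining enzymes were not analysed here.

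The relatives of AGR2 went both ways. Of a list of 28 disulfide isomerases and thiol oxidases, AGR2 and 4 others were in the table, and of these others 2 were higher and 2 lower. P4HB, the main disulfide isomerase, rose from 3708 ± 150 to 9895 ± 84.2 normalized counts, and PDIA2 fell from 43.9 ± 12.8 to 10.9 ± 4.78. TXNDC5 was also higher and TMX4 lower. Per kilobase AGR2, with 10.4 and 27.3 normalized counts, was the scarcest of the 3 that rose, itself included, next to TXNDC5 with 21.1 and 43.1. Of 28 genes of folding and the unfolded protein response 9 were in the table, 7 higher and 2 lower (median log2 fold change 1.203). By limma 57.4% of the table's genes were called higher and 42.6% lower. The median log2 fold change of all genes tested was 1.13, close to that of the list. EDEM1, which removes misfolded glycoproteins, rose from 411 ± 18.8 to 1537 ± 134, ERN1, the stress sensor IRE1, from 364 ± 7.03 to 1094 ± 35.7, and DDIT3, the stress factor CHOP, from 349 ± 36.9 to 1040 ± 52.2. KDELR3, a receptor that retrieves proteins with signals of the KDEL type, was lower, from 972 ± 73.7 to 357 ± 44.5, and CRELD2 was lower as well.

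Ligands known to induce mucins in epithelial cells were higher in all 7 of 20 found in the table (median log2 fold change 3.10, beside 57.4% of the table's genes called higher). CXCL8 went from 313 ± 43.1 to 13040 ± 2582 normalized counts, TNF from 10.9 ± 2.26 to 299 ± 24.8 and WNT5A from 773 ± 25.0 to 12370 ± 472. IL1A, IL33, EREG and EGF were the others. IL4, IL13, IL22 and IFNG were not analysed here. Like the other lists, this one was chosen with earlier results of these data known. The part of these ligands in the mucin values was not tested.

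Genes of the Notch pathway, which restrains goblet cells, split 3 and 3 among 6 of 28 in the table. HES1, the effector that represses ATOH1, fell from 954 ± 4.11 to 298 ± 20.4 normalized counts, and HEY2, another effector, rose from 17.4 ± 1.96 to 65.4 ± 4.53. DLL3, an inhibitory ligand, had 1 read over shNC and 23 over shKMT5A, a ratio of 24.3 with an exact counting interval of 3.95 to 1002, and 12.7 without shKMT5A replicate 2. LFNG and MAML2 were lower and HES4 was higher.

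Granule release and other mucin-like proteins were represented by few genes. Of 32 exocytosis genes 3 were in the table: RAB27B, a small GTPase of secretory granules, rose from 304 ± 13.7 to 1820 ± 48.9 normalized counts and MARCKS, which regulates mucin secretion, from 122 ± 6.25 to 352 ± 26.6, while SYTL2, a partner of RAB27 proteins, fell from 533 ± 10.3 to 258 ± 23.7. Of a list of 23 other mucins and mucin-like proteins 2 genes were in the table. CD24, a small heavily glycosylated surface protein whose counts may be shared with near-identical copies, fell from 722 ± 23.8 to 129 ± 22.0. SSPO, named for SCO-spondin, has the current symbol SSPOP, that of a pseudogene. Its transcript rose from 35.1 ± 6.03 to 299 ± 46.5.

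**Figure D4:**
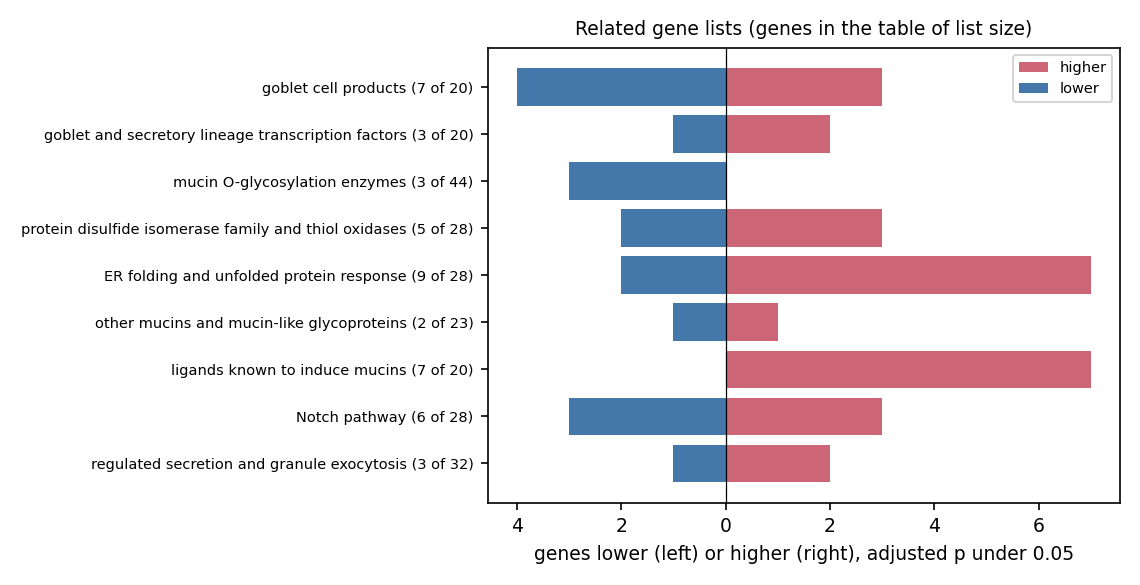
Number of genes of each related list that were lower (left, blue) or higher (right, red) in the libraries labelled shKMT5A at an adjusted p under 0.05, with the genes in the table and the list size in brackets. MUC2 and AGR2 are counted in the lists that hold them, and AGR2, SYTL2 and XBP1 recur between pathway lists. Ligands known to induce mucins are all on the higher side (7) and mucin O-glycosylation enzymes all on the lower side (3).

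Of 18 markers of colon epithelium, 5, MUC2 included, were in the table. The epithelial identity of the line cannot be checked this way, since the table holds only genes with a called difference. The keratins KRT8, KRT18 and KRT19 were abundant and lower in the libraries labelled shKMT5A, KRT8 going from 100200 ± 4818 to 26250 ± 395 normalized counts. The intestinal cadherin CDH17 was near 0, with 0 reads over shNC and 12 over shKMT5A. The summed level of the 5 markers, nearly all of it from these keratins, ran from 144300 to 157100 in shNC and from 45690 to 47210 in shKMT5A. None of 16 markers of absorptive colonocytes, 12 of Paneth and deep crypt secretory cells and 16 of gastric and airway mucous cells was in the table, and these were not analysed here. The part of other cell states in the mucin values was not tested.

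Profiles most like those of the 4 genes were found by the root mean square distance between log2(value + 1) values over the 6 libraries, each gene centred on its mean. Nearest to MUC1 were LYPLAL1, MARCKS and TDRD7, at 0.052, 0.057 and 0.058. Nearest to AGR2 were EFCC1, CYP4F30P and SDCBP2, at 0.134, 0.135 and 0.148. MUC4 had ADGRF3, AC067945.1 and AL512770.1 at 0.241, 0.269 and 0.270, and MUC2 had SLC22A11, RGMA and KCNE4 at 0.206, 0.274 and 0.297. None of the 4 was among the 3 nearest of another.

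**Figure D5:**
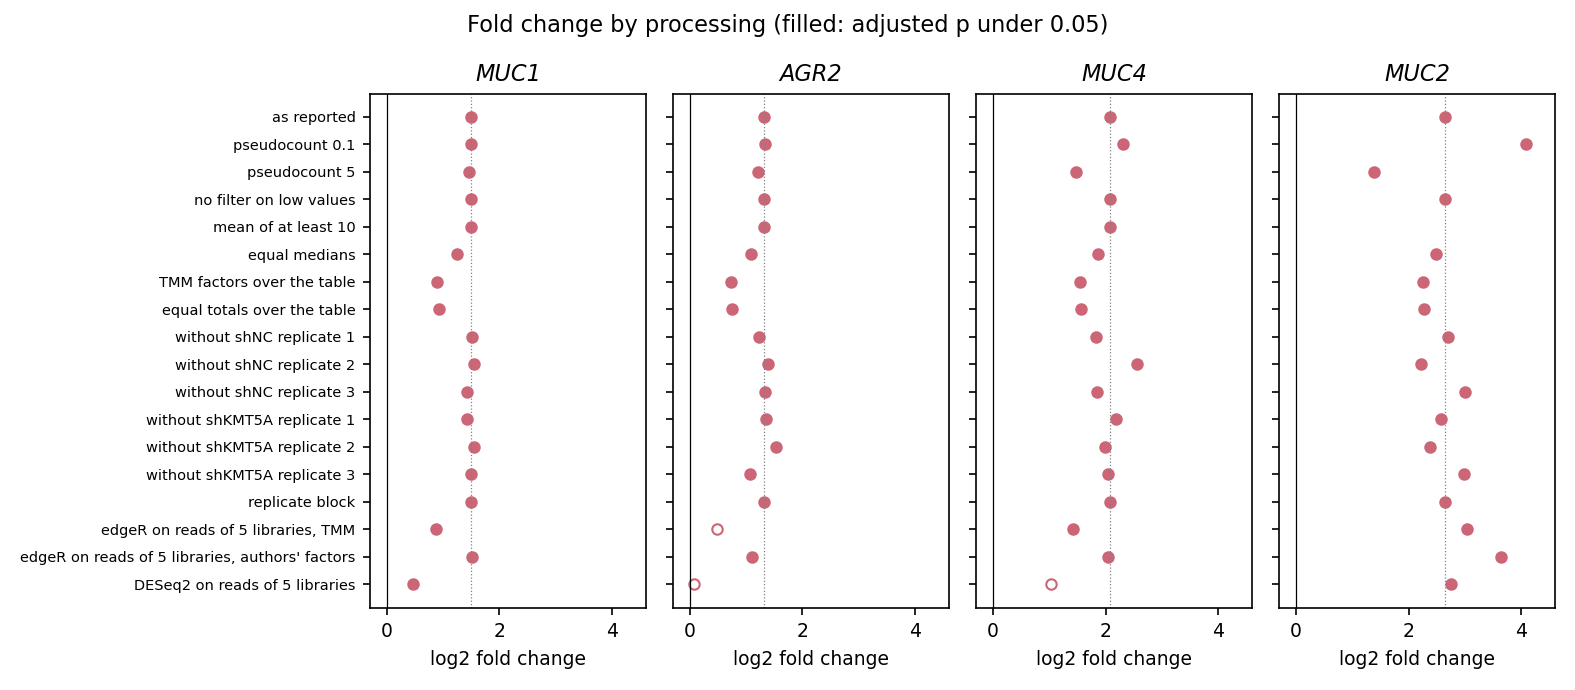
Log2 fold change of MUC1, AGR2, MUC4 and MUC2 under each way of processing; filled points passed an adjusted p of 0.05, and the dotted line marks the value as reported. All points lie above 0; AGR2 is open with edgeR and TMM and with DESeq2, MUC4 is open with DESeq2, and MUC2 has no point for a mean of at least 10.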

How the data were processed

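Per the labels' protocols, total RNA of RKO cells was isolated with TRIzol before kit-based library preparation. Named in the submitters' processing notes are DESeq2 1.20.0, featureCounts 1.5.0-p3, HISAT2 2.0.5, fastp and CASAVA 1.8, with the build GRCh38. The use of strand in counting is not stated there. In the deposited signal columns each gene's reads had been scaled by the authors with 1 factor per library. In each column all values were whole multiples (within 0.001) of the value of 1 read, which ranged from 0.9522 to 1.047. The authors' log2 fold change and p-value columns were also deposited, and are quoted as such.

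The whole table, down to a mean of 1 normalized count, was tested in R 4.3.3 with limma 3.58.1 (robust, with a trend; statmod 1.5.0) on log2(value + 1), with Benjamini-Hochberg adjustment and a threshold of 0.05. This scale understates the change of low genes. Alternatives changed the pseudocount, filter, scaling, libraries and block. edgeR 4.0.16 and DESeq2 1.42.0 were run on reads recovered in 5 libraries. They leave out shKMT5A replicate 3, where a read is worth 0.9935, so close to 1 that recovery could not be checked in the same way. Its reads entered the read numbers, the ratios of reads with their counting intervals and bounds, and the variation expected from counting. Permutation tests used scipy 1.17.1 (Python 3.11.15). The limma step was tested on simulated data.

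The 4 genes and the gene lists (9 of related pathways with 237 distinct genes, 42 of them in the table, and 9 of cell type markers) were chosen with earlier results of these data known. All 4 genes were described, with the 3 largest changes of each pathway list, other list genes as examples, and the 3 nearest profiles. Sequences came from RefSeq (GRCh38.p14) windows, in which all 4 genes matched by symbol, and GENCODE 29 transcripts. Motifs were searched on both strands.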

Additional observations from a re-analysis of the deposited data

How the results depend on the processing

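MUC1, AGR2, MUC4 and MUC2 kept a positive log2 fold change under every alternative run. The 4 genes stayed called under each change of pseudocount, filter, scaling, libraries and block that could test them. MUC2 had no value with a mean of at least 10 normalized counts, and 3 genes were then called. These changes gave log2 fold changes of 0.90 to 1.55 for MUC1, 0.73 to 1.53 for AGR2, 1.48 to 2.56 for MUC4 and 1.38 to 4.10 for MUC2. That of KMT5A fell to 0.94 with TMM factors and 0.96 with equal totals, and stayed called. Count tests on the reads of 5 libraries were chosen after seeing the data: edgeR with TMM called 3 of the 4 genes, edgeR with the authors' factors 4, and DESeq2 2. With DESeq2 the log2 fold change was 0.47 for MUC1, 0.07 for AGR2, 1.04 for MUC4, 2.76 for MUC2 and 0.59 for KMT5A. DESeq2 called 786 genes of the table higher and 1229 lower, 39.0% of calls higher against 57.4% with limma. Its size factors, like TMM factors, take most genes as unchanged, and a table of selected genes does not meet that. Equal medians and equal totals were computed over the same selected genes. SDCBP2, named for its profile, was at -0.06217 (log2) with DESeq2 (adjusted p = 0.921, against 0.00112 to 0.375 under the other ways of processing). Leaving out 1 library gave 4 of the 4 genes, 1645 to 1653 higher and 1225 to 1228 lower genes of the table and a KMT5A log2 fold change of 1.48 to 1.62. Over the single genes, 703 values under these changes kept their side of the threshold and 2 did not, both of SDCBP2. Of the values from count tests, 138 kept it, 14 lost it and 1, that of SDCBP2, turned. With the replicate number as a block, 4 genes, and 1655 higher and 1228 lower genes of the table, were called as without it. Same-numbered libraries did not deviate together (correlations -0.0354, -0.0381 and 0.000878). No pairing by number was thus seen in these selected genes, and a shared culture or batch was not tested. The authors' selection of the table builds in much of this stability. Depth limits MUC2 and MUC4, which rest on 3 and 16 reads in the shNC group.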

Other observations

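Few markers of tuft, enteroendocrine and stem cells were in the table, and the 4 it held were higher in the libraries labelled shKMT5A. Of 12 tuft cell markers POU2F3, the factor that specifies tuft cells, went from 119 ± 12.6 to 555 ± 41.8 normalized counts, and ALOX5, a leukotriene enzyme, from 30.8 ± 9.04 to 108 ± 5.05 (SD, n = 3 each). Of 16 enteroendocrine markers SCG2, a granin of secretory granules, went from 14.5 ± 3.69 to 345 ± 45.3. Of 12 stem cell and crypt base markers EPHB2 went from 204 ± 17.1 to 507 ± 20.4. By limma each had an adjusted p of at most 1.07e-05, in a table where 57.4% of genes were called higher. With DESeq2 on the reads of 5 libraries EPHB2 was not called (adjusted p = 0.0995, against at most 3.16e-05 under the other ways of processing).

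Of 16 leukocyte markers 4 were in the table, 1 higher and 3 lower, and of 15 markers of fibroblasts and endothelial cells 6 were in the table, 3 higher and 3 lower. The summed level of the leukocyte markers ran from 489 to 548 normalized counts in shNC and from 114 to 139 in shKMT5A, with CORO1A the most abundant at 490 ± 27.3 and 105 ± 12.9. That of the fibroblast and endothelial markers ran from 172 to 181 in shNC and from 95.3 to 121 in shKMT5A, with LUM at 111 ± 13.0 in shNC and 1 read over shKMT5A. LUM made up most of the sum in shNC, so the lower sum does not describe the list as a set. DCN and TEK were also lower. COL3A1 rose from 14.15 to 65.66 and ACTA2 from 16.78 to 37.33 (group means), and CDH5 had 0 reads over shNC and 14 over shKMT5A. The table, which holds only genes with a called difference, did not hold PTPRC, COL1A1 or PECAM1, and these were not analysed here.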
